A study of Mus musculus with 15 samples.

Results

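The regulators of brown fat identity and of mitochondrial biogenesis were read in the interscapular brown fat of mice given an agonist of the FGFR1/KLB receptor complex. They comprise 10 genes: Prdm16, Ebf2, Cebpb, Ppargc1a, Ppargc1b, Ppara, Pparg, Esrra, Esrrg and Cidea. Each was represented by its brightest probe set on average, among those that carry that symbol alone, out of 18194 genes represented this way on the array. All 10 lay above the filter on low values, which 13174 genes passed. The 10 genes have 25 probe sets in total, of which 24 passed the filter, and the other probe sets are reported beside the brightest.

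The animals were wild-type adult male C57BL/6N mice fed a high-fat diet, 5 per group, each on its own array. Controls carry the numbers 31 to 35, and the labels name no substance injected into them. Mice 36 to 40 received human FGF21, a hormone that signals through FGFR1 and its co-receptor KLB, at 1 mg/kg in 2 injections a day (2 mg/kg per day). Mice 41 to 45 received a single intraperitoneal dose of 10 mg/kg of bFKB1, an agonistic antibody to FGFR1/KLB labelled aFGFR1/KLB and called the antibody here. All tissue was taken on day 5, so the treatments differed in agent, dose and schedule at once.

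Brown adipocytes burn fatty acids to make heat. PRDM16 and EBF2 set their identity together with C/EBPβ and PPARγ, and keep genes of other lineages low. PGC-1α and PGC-1β (Ppargc1a and Ppargc1b) are coactivators that drive mitochondrial biogenesis through nuclear receptors such as ERRα, ERRγ and PPARα, and cAMP signalling after cold raises Ppargc1a and Cebpb. CIDEA is a lipid droplet protein long used as a marker of brown fat.

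Intensities are given on the log2 scale, so a difference of 1 is a doubling. Array medians lay between 50.6 and 52.1 in linear units, and the number of arrays limits the precision: the median standard error of a difference between a treated group and control was 0.10. The 7 brown adipocyte markers that passed the filter had mean levels of 13.66 to 13.88 in controls, 13.87 to 14.14 with FGF21 and 14.05 to 14.22 with the antibody, high in every sample as the tissue label implies. These 7 include Cidea, and the largest difference from control among them was that of Elovl3. It was 2.10 with the antibody and 1.60 with FGF21, while the medians over the 7 were 0.06 and 0.04. All 14 skeletal muscle markers passed the filter, with mean levels of 9.06 to 10.88 in controls, 4.78 to 12.91 with FGF21 and 5.03 to 13.01 with the antibody. The 10 endothelial markers, all above the filter, had mean levels of 8.05 to 8.39 in controls, 8.25 to 8.65 with FGF21 and 8.28 to 8.48 with the antibody, and every treated animal lay above 4 of the 5 controls, the exception being control 34. Of these, Sox17 rose with the antibody and Sox17 and Eng with FGF21. The part of endothelial RNA in the results below was not tested. All 16 macrophage markers passed the filter, with mean levels of 8.51 to 11.31, 8.75 to 11.66 and 9.13 to 9.98, and sums of linear intensity of 8260 to 63747, 9732 to 74642 and 13141 to 24427. Control 34 and FGF21 36 stood apart: they had the highest macrophage levels (11.31 and 11.66) and the highest levels of the 11 tested fibroblast markers (11.87 and 11.44). Values without both animals are given beside the main ones for the 10 genes. The median difference of the macrophage markers from control was −0.09 with the antibody and 0.58 with FGF21 (0.26 to 1.53). Antibody minus FGF21 was −0.97 to −0.35 for them. The fibroblast medians were −0.49 with the antibody (−0.90 to −0.17) and 0.05 with FGF21. Those of the muscle markers were −1.56 and −1.53. No marker of these lists passed in any comparison. The tissue is bulk, so fewer cells of a type and less RNA per cell cannot be told apart.

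Promoter sequences of Ppargc1a and Cebpb are shown first, the genes of the 10 in which every antibody animal lay above every control. RefSeq (GRCm38.p6) starts were available for 7 of the 10 genes, with 12 promoters in all, and the 250 bases before each start were searched on both strands. The 5-letter core TGACG of the cAMP response element was present in 3 of the 12 promoters, 1 each of Ppargc1a, Cebpb and Ppara, and in 17.8% of all 32851 promoters of that length. The share among the 12 was near that background and is not a result about these genes. The windows of Ppargc1a (chr5:51567726-51567975, minus strand) and Cebpb (chr2:167688665-167688914, plus strand) read as follows, 5′ to 3′ along the gene, with the matches in capitals.
Ppargc1a: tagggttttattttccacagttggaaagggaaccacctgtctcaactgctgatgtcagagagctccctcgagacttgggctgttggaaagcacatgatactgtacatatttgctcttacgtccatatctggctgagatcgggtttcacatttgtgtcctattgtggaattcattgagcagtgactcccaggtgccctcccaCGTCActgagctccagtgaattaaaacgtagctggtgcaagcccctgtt
Cebpb: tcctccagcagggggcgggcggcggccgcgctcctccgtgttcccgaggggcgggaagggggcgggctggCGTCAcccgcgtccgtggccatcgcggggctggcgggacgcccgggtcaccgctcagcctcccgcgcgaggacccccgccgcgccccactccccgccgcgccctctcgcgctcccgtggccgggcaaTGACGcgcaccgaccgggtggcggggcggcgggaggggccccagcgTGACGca
The Ppargc1a match lay 49 bases before the start on the opposite strand (CGTCA), at chr5:51567770-51567774, and the 3 matches of Cebpb lay 180, 53 and 7 bases before its start. The Ppara match lay 222 bases before the start, at chr15:85735554-85735558. The full element TGACGTCA, which contains the core, was in 1.55% of all promoters and in none of the 12. The same held for the ERR element TCAAGGTCA (0.387% of all), its looser form TNAAGGTCA (1.14%), the C/EBP palindrome TTGCGCAA (0.164%) and the PPAR element built of a repeated nuclear receptor half-site with a free base between the copies (0.0335%). TTGCNNAA, the looser form of the C/EBP palindrome, was in 9.56% of all promoters and in 1 promoter each of Esrrg and Pparg. The window of Prdm16 held no match to any of these motifs, which says only that these letters are not in those 250 bases.

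Against control, 2 of the 10 genes passed limma's test with the antibody: Ppargc1a rose and Prdm16 fell. Over all genes tested 5.18% passed, 354 up and 328 down. 3 of the 10, Ppargc1a, Prdm16 and Cebpb, had groups that did not overlap, against 8.61% of all genes, and the same 3 had an unadjusted p under 0.05, against 19.4% of all genes. With FGF21, 2 of the 10 passed and both fell, Prdm16 and Ppara, against 6.32% of all genes (348 up and 485 down). The groups did not overlap for those 2 genes, against 5.25% of all genes, and 4 of the 10 had an unadjusted p under 0.05, against 20.4% of all genes. Between the antibody and FGF21 none of the 10 passed, against 0.372% of all genes, 4 had an unadjusted p under 0.05 (13.5% of all genes) and only Ppara had groups that did not overlap, against 4.69% of all genes. Counts this small were not tested against those shares. The median difference over the 10 genes was −0.02 with the antibody and −0.04 with FGF21, beside −0.02 and −0.02 over all genes. The median size of the difference regardless of sign was 0.23 and 0.07 among the 10, beside 0.11 and 0.11 over all genes. Both comparisons use the same 5 controls, so their values are given side by side and their likeness is not measured.

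**Figure D1:**
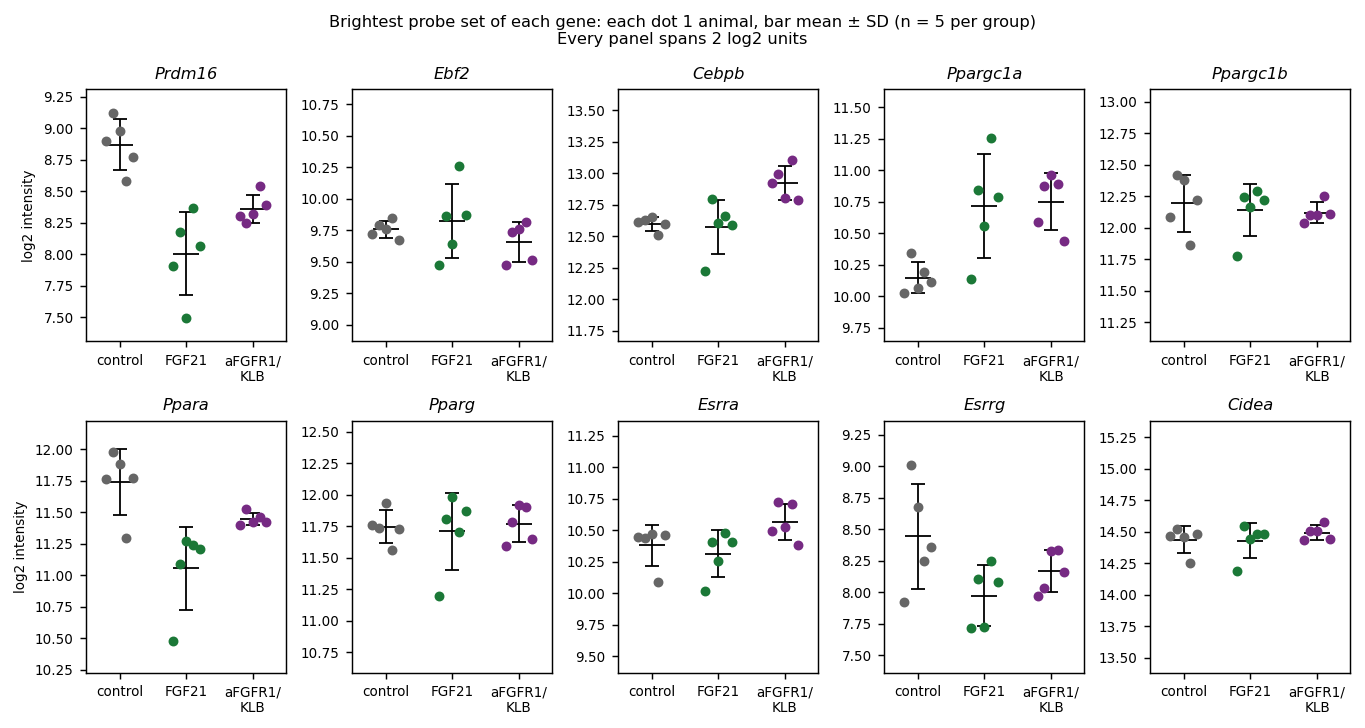
Log2 intensity (vertical axis, every panel spanning the same range) of the brightest probe set of each gene in each animal, by group, with the mean ± SD of 5 animals. Prdm16 was lower in all treated animals than in any control, Ppargc1a was higher in all antibody animals, and Ppara was lower in all FGF21 animals, while Cidea, Pparg and Ppargc1b overlapped.

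**Figure D2:**
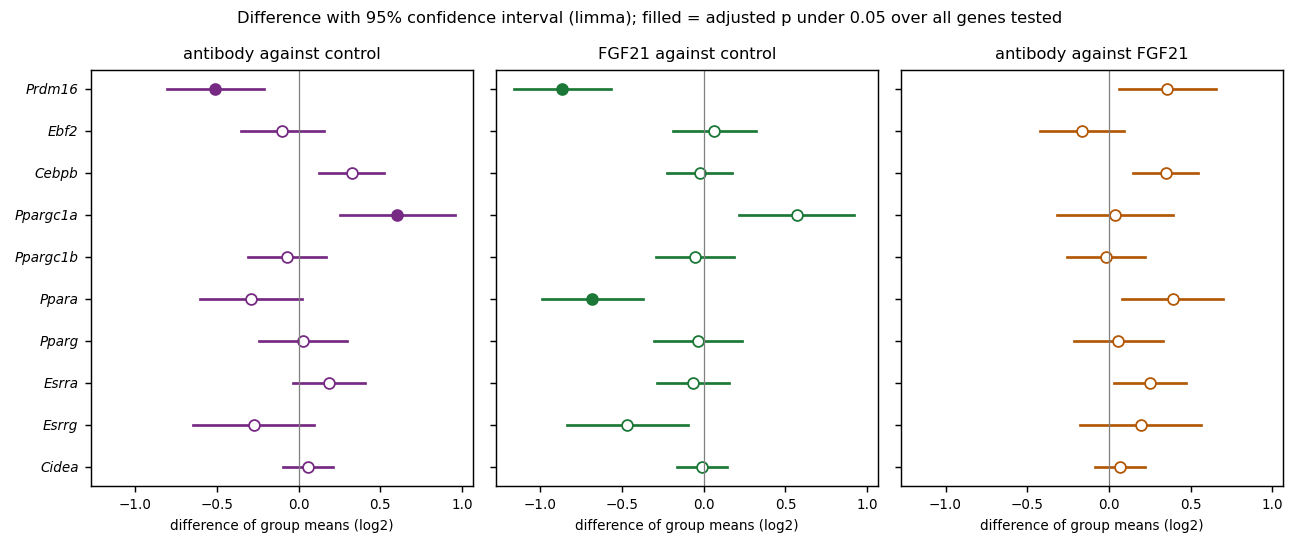
Differences of group means (horizontal axis, log2) with 95% confidence intervals for the 10 genes in the 3 comparisons. Filled points have an adjusted p under 0.05 over all genes tested; they are Prdm16 and Ppargc1a with the antibody, and Prdm16 and Ppara with FGF21.

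Prdm16, the zinc finger factor that sets brown fat identity, fell with both agonists. Controls 31 to 35 read 8.89, 9.12, 8.98, 8.58 and 8.77. FGF21 animals 36 to 40 read 7.91, 8.17, 7.49, 8.37 and 8.06, and antibody animals 41 to 45 read 8.31, 8.24, 8.32, 8.54 and 8.39. Every treated animal was below the lowest control, and the antibody group was tight around 8.36 ± 0.11 (SD, n = 5) while FGF21 spread over 8.00 ± 0.33. With FGF21 the difference was −0.87 ± 0.14 (SE), 0.548 times the control level (95% interval 0.446 to 0.673), adjusted p 0.00234. With the antibody it was −0.51 ± 0.14, 0.702 times control (0.571 to 0.863), adjusted p 0.0475. Antibody minus FGF21 was 0.36 (0.06 to 0.65), adjusted p 0.285, so a difference between the agonists was not shown. The FGF21 call held without each of the 15 samples in turn (adjusted p 0.000762 to 0.00864). The antibody call was close to the threshold: it held in 4 of 15 such fits and was lost without control 31, 32, 33 or 35, FGF21 37 or 40, or any 1 of the 5 antibody animals (adjusted p up to 0.119). Without control 34 and FGF21 36 together it was −0.58, adjusted p 0.0173. With the macrophage marker mean as a covariate it was −0.51, adjusted p 0.0198, and centred on ribosomal protein genes −0.38, adjusted p 0.447.

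The other 3 Prdm16 probe sets were tested among all 27060 probe sets above the filter. 1440745_at read 6.99, 7.41, 7.30, 6.58 and 6.87 in controls, 6.40, 6.42, 6.06, 6.62 and 6.42 with FGF21, and 6.57, 6.54, 6.32, 6.46 and 6.31 with the antibody. It fell with both agonists, by 0.64 with FGF21 (adjusted p 0.0157) and by 0.59 with the antibody (adjusted p 0.0287); only control 34 reached into the treated range. The antibody call of this probe set held in 8 of 15 fits without 1 sample and was lost without control 31, 32 or 33 or antibody 42, 43, 44 or 45 (adjusted p up to 0.0741). 1429308_at fell by 0.76 with FGF21 (adjusted p 0.0135, held in 15 of 15 fits) and was −0.51 with the antibody, adjusted p 0.091. The dimmest, 1429309_at, gave −0.13 and −0.07 (adjusted p 0.49 and 0.744). With FGF21 3 of the 4 Prdm16 probe sets fell and the dimmest did not pass.

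Ebf2, a factor that opens brown fat enhancers and lies upstream of Prdm16, passed in no comparison. Controls read 9.72, 9.79, 9.76, 9.85 and 9.68, FGF21 animals 9.48, 9.87, 9.64, 10.26 and 9.87, and antibody animals 9.47, 9.73, 9.76, 9.82 and 9.51. FGF21 39 was the highest animal and antibody 41 the lowest, and the groups overlapped. The difference was −0.10 with the antibody (95% interval −0.36 to 0.15, adjusted p 0.713), which turned positive (0.03) when centred on ribosomal protein genes, and 0.06 with FGF21 (−0.19 to 0.32, adjusted p 0.82), which turned negative (−0.05) without FGF21 39. Without control 34 and FGF21 36 the values were −0.08 and 0.17 (adjusted p 0.699 and 0.334). The other 2 probe sets lay within −0.07 to 0.09 of control in both comparisons and did not pass.

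Cebpb, which encodes C/EBPβ, a partner of PRDM16, was highest with the antibody. Controls read 12.61, 12.63, 12.66, 12.51 and 12.59, and antibody animals 12.92, 12.99, 12.81, 13.10 and 12.79. FGF21 animals read 12.23, 12.80, 12.61, 12.66 and 12.59, with FGF21 36 lowest of all animals. All 5 antibody animals exceeded all 5 controls, while FGF21 37 lay within the antibody range. The antibody difference was 0.32 ± 0.09, 1.25 times control (1.09 to 1.44), adjusted p 0.0588, which missed the threshold. It passed without FGF21 36 or FGF21 37, and without control 34 and FGF21 36 together (0.30, adjusted p 0.0133). With FGF21 the difference was −0.02 (−0.22 to 0.17), adjusted p 0.916. Antibody minus FGF21 was 0.35 (0.15 to 0.55), with an unadjusted p of 0.00208 and an adjusted p of 0.124. The other Cebpb probe set, 1427844_a_at, gave 0.28 with the antibody (adjusted p 0.349), −0.11 with FGF21 and 0.40 between the agonists (adjusted p 0.255).

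Ppargc1a, the cold-inducible coactivator of mitochondrial biogenesis, rose with the antibody. Controls read 10.03, 10.34, 10.06, 10.19 and 10.12, and antibody animals 10.59, 10.88, 10.96, 10.89 and 10.44. FGF21 animals read 10.13, 10.84, 10.56, 11.26 and 10.78. Every antibody animal exceeded every control, and with FGF21 4 of 5 did, the exception being FGF21 36, which lay among the controls. The antibody difference was 0.60 ± 0.17, 1.52 times control (1.19 to 1.94), adjusted p 0.0486. With FGF21 it was 0.57 ± 0.17, 1.48 times control (1.16 to 1.89), adjusted p 0.0559. Antibody minus FGF21 was 0.04 (−0.32 to 0.39), adjusted p 0.939, and turned negative (−0.11) without FGF21 36. The antibody call held in 4 of 15 fits without 1 sample and was lost without control 31, 32, 33 or 35, FGF21 37, 38 or 40, or antibody 41, 42, 43 or 44 (adjusted p up to 0.117). The FGF21 difference passed without control 34 or without FGF21 36 (adjusted p down to 0.00695), and without both it was 0.72, adjusted p 0.00527. With the macrophage marker mean as a covariate both agonists passed, at 0.60 (adjusted p 0.0252) and 0.62 (adjusted p 0.0324), and centred on ribosomal protein genes neither did (0.74 and 0.59, adjusted p 0.108 and 0.252).

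All 4 other Ppargc1a probe sets rose with the antibody, tested among all 27060 probe sets above the filter. The brightest, 1460336_at, just missed the threshold in that adjustment (0.60, adjusted p 0.0501). 1456395_at read 8.91, 9.28, 8.97, 9.11 and 9.01 in controls, 8.91, 9.70, 9.64, 9.93 and 9.68 with FGF21, and 9.60, 9.85, 9.94, 9.97 and 9.44 with the antibody. Antibody animals were again all above the controls and FGF21 36 again lay with the controls. The rise was 0.70 with this probe set (adjusted p 0.0223), 0.61 with 1437751_at (0.0285), 0.54 with 1434099_at (0.0431) and 0.50 with 1434100_x_at (0.0275). Each of these calls was lost in some fits without 1 sample: 10, 9, 5 and 9 of 15 passed, and antibody 42, 43 and 44 and control 33 ended all 4 when left out (adjusted p up to 0.112). Control 31 ended the first 3, controls 32 and 35 ended 2 and 3 of the 4, and FGF21 37 and 40 and antibody 41 ended that of 1434099_at. With FGF21 the same 4 probe sets gave 0.51, 0.30, 0.43 and 0.43, and none passed (adjusted p 0.052 to 0.295).

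Ppargc1b, the other coactivator of the pair, passed in no comparison. Controls read 12.08, 12.41, 12.38, 11.86 and 12.22, FGF21 animals 11.78, 12.25, 12.16, 12.29 and 12.22, and antibody animals 12.03, 12.10, 12.10, 12.25 and 12.11. The groups overlapped, with FGF21 36 and control 34 at the bottom. The differences were −0.07 with the antibody (−0.31 to 0.17, adjusted p 0.788) and −0.05 with FGF21 (−0.29 to 0.18, adjusted p 0.84). The antibody value turned positive (0.06) when centred on ribosomal protein genes. Without control 34 and FGF21 36 it was −0.16 (adjusted p 0.177), and the FGF21 value was −0.05.

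**Figure D3:**
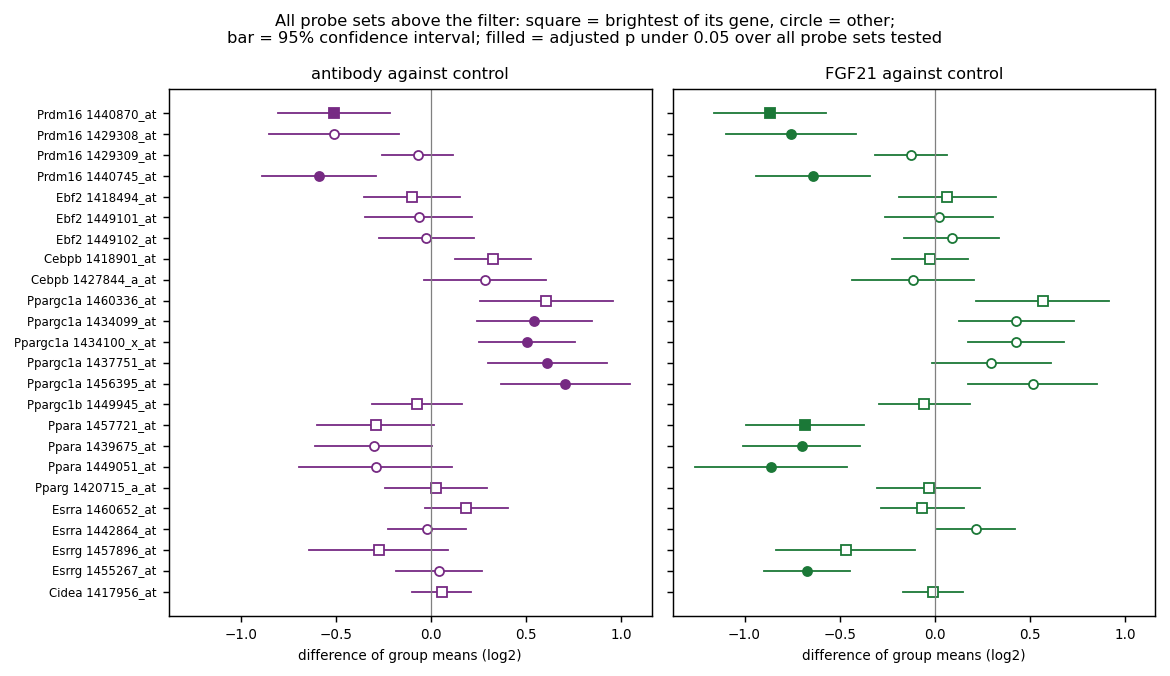
Differences of group means (horizontal axis, log2, with 95% confidence intervals) for the 24 probe sets above the filter, for the antibody and FGF21 against the same controls. All 5 Ppargc1a probe sets lie to the right of 0 in both panels. All 3 Ppara and all 4 Prdm16 probe sets lie to the left. In the antibody panel the 2 Esrrg probe sets lie on opposite sides of 0, and both of their intervals include 0.

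Ppara, the receptor that switches on fatty acid oxidation, fell with FGF21. Controls read 11.77, 11.97, 11.88, 11.29 and 11.77, FGF21 animals 10.48, 11.09, 11.27, 11.24 and 11.20, and antibody animals 11.40, 11.52, 11.42, 11.46 and 11.42. FGF21 animals were all below the controls, by a narrow margin to control 34, and all below the antibody animals. The difference with FGF21 was −0.68 ± 0.15, 0.623 times control (0.502 to 0.773), adjusted p 0.0127, and it held without each sample in turn (adjusted p up to 0.041). With the antibody it was −0.29 ± 0.15 (−0.60 to 0.02), adjusted p 0.297, and antibody minus FGF21 was 0.39 (0.08 to 0.70), adjusted p 0.275. Without control 34 and FGF21 36 the FGF21 difference was −0.65 (adjusted p 5.01e-05) and the antibody difference −0.40 (adjusted p 0.00107), which then passed. With the macrophage marker mean as a covariate the FGF21 difference was −0.55 (adjusted p 0.00333). The FGF21 call was lost when centred on ribosomal protein genes (−0.66, adjusted p 0.244) and when only the 2 groups entered the fit.

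The other 2 Ppara probe sets fell with FGF21 as well. 1439675_at read 11.70, 11.99, 12.00, 11.22 and 11.76 in controls, 10.61, 10.94, 11.25, 11.16 and 11.21 with FGF21, and 11.34, 11.48, 11.52, 11.40 and 11.43 with the antibody. Here FGF21 38 lay just above control 34, and the other 4 FGF21 animals below all controls. It fell by 0.70 (adjusted p 0.0114, 15 of 15 fits without 1 sample), and 1449051_at fell by 0.86 (adjusted p 0.0159; 0.0501 without control 32, the only sample whose loss ended the call). With the antibody they gave −0.30 and −0.29 (adjusted p 0.286 and 0.458).

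Pparg, the master regulator of fat cell formation, showed no difference past the threshold. Controls read 11.76, 11.74, 11.94, 11.56 and 11.73, FGF21 animals 11.19, 11.81, 11.98, 11.70 and 11.87, and antibody animals 11.60, 11.78, 11.92, 11.91 and 11.65. FGF21 36 was the lowest animal and the groups overlapped. The difference was 0.02 with the antibody (−0.25 to 0.30, adjusted p 0.944) and −0.03 with FGF21 (−0.30 to 0.24, adjusted p 0.914). Both signs turned without control 34 and FGF21 36, to −0.02 and 0.05.

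ERRα is encoded by Esrra and ERRγ by Esrrg, and both receptors bind PGC-1 coactivators and act on genes of oxidative metabolism. Esrra read 10.44, 10.44, 10.47, 10.09 and 10.46 in controls, 10.02, 10.41, 10.25, 10.48 and 10.41 with FGF21, and 10.49, 10.72, 10.53, 10.71 and 10.38 with the antibody. Most antibody animals lay above the controls, but antibody 45 did not. The difference was 0.19 with the antibody (−0.03 to 0.40, adjusted p 0.353), −0.07 with FGF21 (adjusted p 0.785) and 0.25 between the agonists (0.03 to 0.47, adjusted p 0.305). The second Esrra probe set, 1442864_at, gave the opposite signs: −0.02, 0.21 (adjusted p 0.243) and −0.24 (adjusted p 0.286). Without control 34 and FGF21 36 the brighter probe set gave 0.11 with the antibody (adjusted p 0.356) and −0.06 with FGF21. No direction for Esrra was therefore shared by its probe sets.

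Esrrg fell with FGF21 on 1 of its 2 tested probe sets. The brighter, 1457896_at, read 7.92, 9.01, 8.67, 8.25 and 8.36 in controls, 7.71, 8.10, 7.72, 8.24 and 8.08 with FGF21, and 7.97, 8.03, 8.33, 8.34 and 8.16 with the antibody. Controls spread over more than 1 log2 unit and overlapped both treated groups. Its differences were −0.47 with FGF21 (−0.84 to −0.10, adjusted p 0.134) and −0.28 with the antibody (adjusted p 0.425), and antibody minus FGF21 was 0.19 (adjusted p 0.618). Leaving out control 34 and FGF21 36 gave −0.45 and −0.32 (adjusted p 0.127 and 0.278). The second, 1455267_at, read 8.17, 8.25, 8.02, 7.96 and 8.45 in controls, 7.33, 7.66, 7.64, 7.33 and 7.52 with FGF21, and 8.08, 8.08, 8.22, 8.22 and 8.46 with the antibody. FGF21 animals were all below all others, and antibody animals overlapped the controls. It fell by 0.67 with FGF21 (adjusted p 0.00225), was 0.04 with the antibody (−0.18 to 0.27) and was higher with the antibody than with FGF21 by 0.71 (0.49 to 0.94, adjusted p 0.01). Both calls held in 15 of 15 fits without 1 sample, the latter with an adjusted p up to 0.0372. The third probe set, 1421747_at, lay below the filter.

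Cidea had the smallest standard error of the 10 genes (0.07) and passed in no comparison. Controls read 14.47, 14.52, 14.46, 14.25 and 14.48, FGF21 animals 14.19, 14.55, 14.44, 14.48 and 14.49, and antibody animals 14.44, 14.51, 14.51, 14.58 and 14.44. The groups overlapped, with FGF21 36 and control 34 lowest. The difference was 0.06 with the antibody (−0.10 to 0.21, adjusted p 0.741) and −0.01 with FGF21 (−0.16 to 0.14, adjusted p 0.955), and the FGF21 sign turned (0.01) when centred on ribosomal protein genes. With both of those animals left out the values were 0.0094 and 0.0029.

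Other genes of the pathway were described by 9 lists with 200 distinct tested genes. With the antibody 17 rose and 7 fell (12.0% passed), and with FGF21 13 rose and 12 fell (12.5%), beside the 5.18% and 6.32% of all genes given above. Their median difference was 0.06 and 0.02. The lists were chosen with earlier results of these data known, so these counts are a description. Centred on ribosomal protein genes, 7 of the 24 antibody calls and 8 of the 25 FGF21 calls passed, all in the same direction. These included Elovl3, Dio2, Ffar4 and Acot1 with both agonists.

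Among 22 further regulators of brown identity, 1 fell and none rose with the antibody, and 4 fell and none rose with FGF21; the list medians were −0.04 and 0.09. Cebpa, the C/EBPα gene that works with PPARγ in fat cells, fell with both. It read 12.40, 12.58, 12.61, 12.12 and 12.46 in controls, 11.92, 12.09, 11.70, 12.07 and 12.08 with FGF21, and 12.01, 11.92, 11.99, 12.19 and 11.91 with the antibody. FGF21 animals were all below the controls, and antibody 44 alone overlapped them. The differences were −0.46 with FGF21 (adjusted p 0.0138) and −0.43 with the antibody (adjusted p 0.0241; up to 0.0684, and lost without control 32, 33 or 35 or antibody 41, 42, 43 or 45). Zfp423, a factor known to hold back the thermogenic program, read 7.84, 7.73, 7.54, 7.49 and 7.75 in controls, 7.34, 6.83, 7.10, 7.11 and 6.96 with FGF21, and 7.51, 7.52, 7.49, 7.60 and 7.53 with the antibody. Zfp423 fell by 0.60 with FGF21 (adjusted p 0.00144), against −0.14 with the antibody, and the difference between the agonists was 0.46 (adjusted p 0.0438). That call was lost without 12 of the 15 samples in turn (adjusted p up to 0.123), all but control 33, control 34 and FGF21 36. Ebf3, a relative of Ebf2, fell by 0.64 with FGF21 (adjusted p 0.0144) and was −0.28 with the antibody (adjusted p 0.302). Tle3, a corepressor that opposes PRDM16 and was named after its values were seen, was lower with the antibody than with FGF21: antibody minus FGF21 was −0.56 (adjusted p 0.0099, 15 of 15 fits); against control it was −0.27 and 0.29 (adjusted p 0.0765 and 0.0511).

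**Figure D4:**
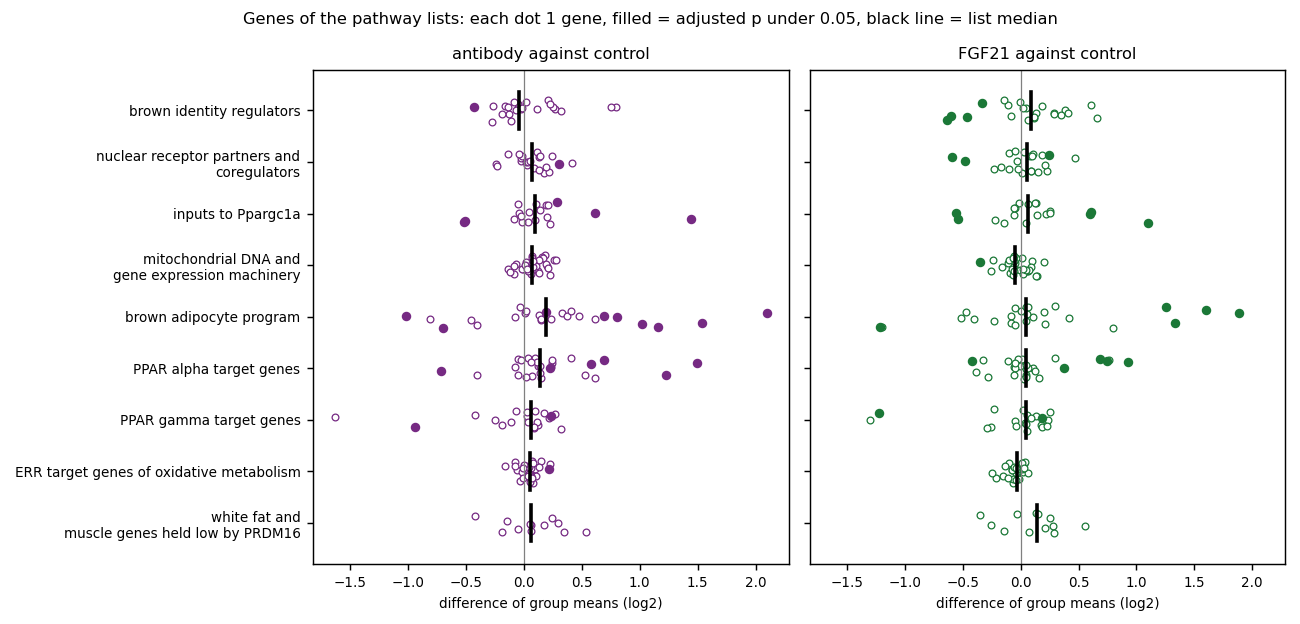
Differences of group means (horizontal axis, log2) of the genes of 9 pathway lists, for the antibody and FGF21 against the same controls. Filled dots passed at an adjusted p of 0.05 and black lines mark list medians, which lie between −0.05 and 0.19.

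Among 22 partners and coregulators of the nuclear receptors, 1 rose with the antibody, and 1 rose and 2 fell with FGF21. Med1, a Mediator subunit that binds nuclear receptors, rose by 0.30 with the antibody (adjusted p 0.016) and by 0.25 with FGF21 (adjusted p 0.0334). The antibody call held without each of the 15 samples in turn. It was lost with the mean of all probe sets, with ribosomal centring and in the exact permutation test. Over all alternatives the antibody difference was 0.154 to 0.435. The FGF21 call was lost without control 31, 32, 33 or 35 or FGF21 37, 38, 39 or 40 (adjusted p up to 0.0878). Thra, a thyroid hormone receptor, fell with FGF21. Thra read 9.59, 9.63, 9.47, 9.12 and 9.48 in controls, 8.78, 8.86, 8.85, 9.05 and 8.81 with FGF21, and 9.20, 9.20, 9.13, 9.32 and 9.25 with the antibody. The 3 groups were ordered control, antibody, FGF21, with control 34 alone reaching below the antibody animals. The fall was 0.59 with FGF21 (adjusted p 0.0014), against −0.24 with the antibody (adjusted p 0.131). Lpin1, a coactivator of PGC-1α and PPARα as well as a lipid phosphatase, fell by 0.48 with FGF21 (adjusted p 0.0063) and was −0.05 with the antibody (adjusted p 0.843); antibody minus FGF21 was 0.44, adjusted p 0.0522.

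Among 19 signalling genes that feed into Ppargc1a, 3 rose and 2 fell with each agonist, with list medians of 0.09 and 0.07. Adcy3, an adenylyl cyclase that makes cAMP, read 10.22, 10.40, 10.15, 9.71 and 10.28 in controls, 10.66, 12.00, 10.95, 11.34 and 11.32 with FGF21, and 11.74, 11.87, 11.53, 11.90 and 10.94 with the antibody. Every treated animal was above every control. Adcy3 rose by 1.44 with the antibody (adjusted p 0.00347) and 1.10 with FGF21 (adjusted p 0.0123). Prkaa1, a catalytic subunit of the energy sensor AMPK, rose by 0.61 with each (adjusted p 0.00631 and 0.0043). Map2k3, a kinase that activates p38, rose by 0.60 with FGF21 (adjusted p 0.000113) and by 0.29 with the antibody (adjusted p 0.019; up to 0.0519, lost without control 32 or antibody 42). Antibody minus FGF21 for Map2k3 was −0.31, adjusted p 0.0502. Map2k6 and Nos3, named after their values were seen, were the 2 that fell with the antibody. Map2k6 fell by 0.52 (adjusted p 0.0358) and Nos3 by 0.51 (adjusted p 0.0237). Those calls held in 7 and 10 of 15 fits without 1 sample. With FGF21 the lowest difference of the list was −0.56.

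PGC-1 coactivators are known to drive mitochondrial gene expression and ERR target genes. Among 31 genes for mitochondrial DNA and its expression none passed with the antibody in limma (3 at an unadjusted p under 0.05) and 1 fell with FGF21, with list medians of 0.07 and −0.05. That gene was Polg2, the accessory subunit of the mitochondrial DNA polymerase, which fell by 0.35 (adjusted p 0.027; up to 0.0773, lost without control 31, 32, 33 or 35 or FGF21 37 or 40). Among 29 ERR target genes of oxidative metabolism 1 rose with the antibody and none passed with FGF21 (0 at an unadjusted p under 0.05), with medians of 0.05 and −0.04 and a range of −0.25 to 0.22 over both comparisons. Between the agonists none of the 29 passed (1 at an unadjusted p under 0.05), though all 29 were higher with the antibody than with FGF21, by 0.003 to 0.19 with a median of 0.08, beside 53.7% of all genes. The count of higher genes, added after the data were seen, was 28 after quantile normalisation, beside 58.9% of all genes. It was 22 without control 34 and FGF21 36 (median 0.02, beside 50.5% of all genes). Ribosomal centring raises every antibody minus FGF21 difference by the same amount, so its 29 was fixed beforehand (beside 78.0% of all genes). Slc25a3, the mitochondrial phosphate carrier, rose by 0.21 with the antibody (adjusted p 0.0345; up to 0.0985, lost without control 31, 32 or 33, FGF21 40 or antibody 42, 43, 44 or 45).

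Of 25 genes of the brown adipocyte program, 7 rose and 2 fell with the antibody, with a median of 0.19. With FGF21 4 rose and 1 fell, with a median of 0.05. Differences over the list ran from −1.02 to 2.10 with the antibody and from −1.21 to 1.89 with FGF21. The genes named here, those with the smallest p, all rose. Elovl3, a fatty acid elongase induced by cold, read 10.41, 10.36, 10.52, 9.54 and 10.41 in controls, 11.26, 12.17, 12.30, 11.73 and 11.76 with FGF21, and 12.62, 12.65, 12.28, 12.41 and 11.77 with the antibody. Every treated animal exceeded every control, and Elovl3 rose by 2.10 with the antibody (adjusted p 0.000331) and 1.60 with FGF21 (adjusted p 0.00111). Dio2, which activates thyroid hormone inside the cell, rose by 1.16 (adjusted p 0.0142) and 1.89 (adjusted p 0.000594). Ffar4, a fatty acid receptor, rose by 1.54 and 1.25 (adjusted p 0.00117 and 0.00314). Bmp8b, a secreted factor of thermogenic fat, rose by 1.33 with FGF21 (adjusted p 0.00189) and by 0.80 with the antibody (adjusted p 0.036; up to 0.0936, lost without control 32, 33 or 35 or antibody 41, 42, 43 or 44).

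Of 27 target genes of PPARα, 5 rose and 1 fell with the antibody and 4 rose and 1 fell with FGF21, the agonist with which Ppara itself fell; the medians were 0.13 and 0.04. Acot1, an acyl-CoA thioesterase, read 5.70, 5.89, 5.87, 6.10 and 6.17 in controls, 6.75, 7.39, 6.75, 6.75 and 6.71 with FGF21, and 7.18, 7.57, 7.14, 7.19 and 6.79 with the antibody. All treated animals exceeded all controls, and Acot1 rose by 1.22 with the antibody (adjusted p 0.000768) and 0.92 with FGF21 (adjusted p 0.00271). Ehhadh, a peroxisomal enzyme of fatty acid oxidation, rose by 1.50 with the antibody (adjusted p 0.00737) and was 0.77 with FGF21 (adjusted p 0.119). Acot2, the mitochondrial relative of Acot1, rose by 0.69 with the antibody (adjusted p 0.0168; 0.051 without antibody 42) and was 0.30 with FGF21 (adjusted p 0.288). Acaa1b, a peroxisomal thiolase, rose by 0.74 with FGF21 (adjusted p 0.00579) and was 0.24 with the antibody (adjusted p 0.389). Plin2, a lipid droplet coat protein, rose by 0.37 with FGF21 (adjusted p 0.00189) and by 0.23 with the antibody (adjusted p 0.0352; up to 0.1, lost without control 32, 33 or 35, FGF21 40 or antibody 41, 42, 43 or 45). No gene of this list passed between the agonists, where 8 of 27 had an unadjusted p under 0.05, against 13.5% of all genes. Such counts were not particular to this list. They were 9 of 25 for the brown adipocyte program, 7 of 22 for the partners and coregulators and 5 of 22 for the identity regulators. The inputs to Ppargc1a had 4 of 19 and the mitochondrial DNA list 6 of 31. PPARγ targets had 2 of 20, ERR targets 1 of 29 and the genes held low by PRDM16 1 of 12.

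Of 20 target genes of PPARγ, 1 rose and 1 fell with each agonist, with medians of 0.06 and 0.05. Trarg1, which controls the traffic of the glucose transporter GLUT4, read 12.82, 12.80, 12.97, 12.03 and 12.63 in controls, 11.58, 11.12, 11.73, 11.19 and 11.52 with FGF21, and 11.61, 11.60, 11.85, 11.53 and 11.96 with the antibody. All treated animals were below all controls, and Trarg1 levels fell by 1.22 with FGF21 (adjusted p 0.000881) and by 0.94 with the antibody (adjusted p 0.00639). Cd36, a fatty acid transporter, rose by 0.23 with the antibody (adjusted p 0.0248; up to 0.0669, lost without control 31, 32 or 33 or antibody 41, 42 or 45). Lpl, lipoprotein lipase, rose by 0.19 with FGF21 (adjusted p 0.0489), a call that held without control 34 (adjusted p 0.00871) and was lost without each of the other 14 samples in turn (adjusted p up to 0.121). Among 12 white fat and muscle genes that PRDM16 is known to hold low, none passed with either agonist in limma (1 with each at an unadjusted p under 0.05), with medians of 0.06 and 0.14.

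Animals of 1 group also varied together in these genes. After each group's mean was removed, all 45 pairs of the 10 genes correlated positively over the 15 animals. Of these pairs, 20 had an adjusted p under 0.05 (permutation test within groups with 100000 resamples, adjusted over the 45 pairs). No such share was taken over other genes, so whether these counts are particular to the 10 was not tested. The closest pair was Ebf2 and Ppargc1a, with a Pearson r of 0.94 and a Spearman rho of 0.89 (permutation p 0.00041 and 0.00068, adjusted 0.0116 and 0.0153). Without FGF21 39 and FGF21 36, the animals farthest from the median, r was 0.85, with the group means of all 15 animals kept. Ppargc1b and Esrrg had r 0.74 and rho 0.87 (permutation p 0.00879 and 0.0003, adjusted 0.0299 and 0.0135). Without FGF21 36 and control 34, with the same group means kept, r was 0.87. Ppargc1b and Ppara had r 0.90 and rho 0.75 (permutation p 0.00294 and 0.00633, adjusted 0.0165 and 0.0259). Without the same pair of animals r was 0.64 with those group means kept. With group means taken anew it was 0.53, with rho 0.43 (adjusted permutation p 0.305). Many of these relations rested on control 34 and FGF21 36. Without them, over 13 animals with group means taken anew, 42 of 45 pairs were positive. An adjusted permutation p under 0.05 was reached by 4 pairs, of which 2 were among the 20. These 2 were Ppargc1b with Esrrg (r 0.91, rho 0.93, adjusted p 0.0054) and Ebf2 with Ppargc1a (r 0.92, rho 0.87, adjusted p 0.0458). The others were Prdm16 with Ppargc1b (r 0.58, adjusted p 0.0458, against 0.122 over all 15) and Ebf2 with Ppargc1b (r 0.51, adjusted p 0.0458, against 0.161). The 13-animal values were added after the data were seen, and the part of macrophage, fibroblast or muscle RNA in these relations was not tested.

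**Figure D5:**
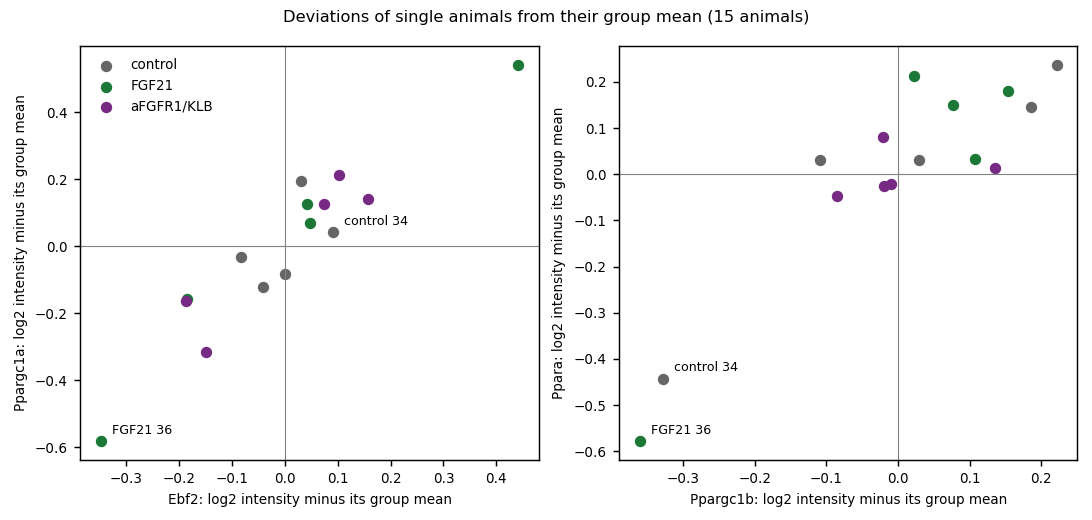
Deviation of each of 15 animals from its group mean (log2), for Ebf2 against Ppargc1a and for Ppargc1b against Ppara, with groups in colour. In the first panel the animals follow a line throughout (r 0.94). In the second, control 34 and FGF21 36 lie far from the rest at the lower left. There r was 0.90 with them and 0.64 without them on the deviations shown. It was 0.53 without them when group means were taken anew.

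The genes whose levels over all 15 samples were most like Ppargc1a were Etfbkmt (Pearson r 0.93), 4933433H22Rik (0.93), Rgl3 (0.92), Pdcd4 (0.92) and Tmem208 (0.91). Those most like Prdm16 were Senp7 (0.98), Rps6ka5 (0.96), Rp9 (0.92), Blcap (0.92) and Fam53b (0.92). These values include the differences between groups and describe likeness of pattern alone, so no test between groups is given for these genes.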

How the data were processed

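Total RNA was measured on 1 array per animal. The values the authors deposited are normalised intensity on a linear scale, 1 per probe set in each sample, made with RMA per the submitters' processing notes; the RMA version is not given in the sources used here. RMA scales the arrays to each other, so a shift shared by most genes would not be seen. The deposited values do not share exactly the same distribution, with array medians of 50.6 to 52.1. Titles gave the groups; no replicate number occurs in more than 1 group, and 0 array columns lacked a sample. Of 45101 probe sets 34958 carried 1 platform symbol, 932 several and 9211 none listed; 34754 matched RefSeq by Entrez ID. Genes took their brightest single-symbol probe set, and the 13174 whose mean exceeded that of 40% of probe sets (5.06) were tested. A one-way model over 15 samples was fitted with limma 3.58.1 in R 4.3.3 and p adjusted by Benjamini-Hochberg per comparison over all genes, threshold 0.05; code was tested on simulated data. All adjusted p are limma's unless a permutation is named. Named were the 10 genes, up to 3 genes per list with the smallest p in each comparison with control, and the 5 genes most like Ppargc1a and Prdm16. Members and lists were chosen with earlier results of these data known. Alternatives covered probe choice, filter, offset, scaling, variance model, samples and covariates. Promoters were searched with Python 3.11.15.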

Additional observations from a re-analysis of the deposited data

Results flagged for a closer look

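Single animals lay far from the other 4 of their group in 4 of 30 group values of the 10 genes, each at the low end. For a single group value chance alone gives about 1 in 20. The 10 genes were read in the same animals, so the 30 values are not separate draws and were not tested against that rate. FGF21 36 read 11.78 for Ppargc1b, with the nearest animal at 12.16, and 10.48 for Ppara, with the nearest at 11.09. Control 34 read 10.09 for Esrra, with the nearest at 10.44, and 14.25 for Cidea, with the nearest at 14.46. These are the animals with the highest macrophage marker levels (11.66 and 11.31), whose part in these values was not tested.

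The agonists differed by the test of the difference itself in 3 further measurements. Antibody minus FGF21 was 0.71 for the Esrrg probe set 1455267_at, while the brighter Esrrg probe set gave 0.19. It was −0.56 for Tle3 and 0.46 for Zfp423.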

How the results depend on the processing

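Each of the 10 genes was recomputed under 29 alternatives in 3 comparisons, 870 values in all: 765 kept direction and side of the threshold, 23 newly passed, 35 no longer passed and 47 changed sign. The Prdm16 fall with FGF21 was lost in the exact permutation test alone. Members called with the antibody (2) became 1 when all probe sets were adjusted together; 0 with no filter, with ribosomal centring, after quantile normalisation and in the exact permutation test; 3 with the 60th percentile filter, with only the 2 groups compared and with the macrophage covariate; and 4 with array weights, with macrophage and muscle covariates, and without control 34 and FGF21 36. Members called with FGF21 (2) became 1 with ribosomal centring and with only the 2 groups compared, 0 in the exact test, and 3 with the mean of all probe sets (Esrrg gained) and with the 60th percentile filter, array weights, either covariate setting and without control 34 and FGF21 36 (Ppargc1a gained). Between the agonists 0 became 2 with array weights and 1 with both covariates. Calls over all genes tested moved with these settings too. With the antibody 682 genes passed in the main fit and 136 with ribosomal centring. Array weights gave 2307, both covariates 1677, and leaving out control 34 and FGF21 36 gave 1631. With FGF21 the same settings gave 833, 133, 2855, 1297 and 2138. Between the agonists 49 became 832 with array weights and 211 with both covariates. Whether the moves were particular to the 10 genes was not tested. Leaving out 1 sample gave 0 to 3 members with the antibody, 2 to 3 with FGF21 and 0 between them. The exact test cannot go below p 0.00794 and calls 0 of all genes after adjustment. An unadjusted exact p under 0.05 was reached by 4, 3 and 4 of the 10 genes. The share of all genes at that level was not taken, so these counts are not a result about the 10. Ribosomal centring (48 genes) moves all antibody differences by 0.13 and FGF21 differences by 0.02.

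Sign changes, none of which passed, were these. Antibody against control: with ribosomal centring Ebf2 0.034 and Ppargc1b 0.061. Pparg was −0.028 with both covariates and −0.020 without control 34 and FGF21 36 (without 1 sample, −0.020 to 0.073). FGF21 against control: Esrra 0.074 as the mean of its probe sets and 0.012 with the macrophage covariate. Cidea was 0.011 with ribosomal centring, 0.049 and 0.027 with 1 and both covariates and 0.0029 without control 34 and FGF21 36. Pparg was 0.088 with array weights, 0.055 with the macrophage covariate and 0.051 without both animals. Cebpb was 0.0058 with array weights, 0.049 and 0.013 with 1 and both covariates and 0.041 without both animals. Ppargc1b was 0.047 and 0.016 with 1 and both covariates. Without 1 sample the FGF21 values were −0.137 to 0.036 for Ppargc1b, −0.101 to 0.096 for Pparg, −0.139 to 0.0083 for Esrra, −0.079 to 0.064 for Cebpb, −0.057 to 0.049 for Cidea and −0.045 to 0.152 for Ebf2. Antibody against FGF21: Ppargc1b 0.094 with ribosomal centring (without 1 sample, −0.109 to 0.019). Pparg was −0.037 with array weights, −0.031 and −0.020 with 1 and both covariates and −0.071 without both animals (without 1 sample, −0.071 to 0.126). Ppargc1a was −0.016 with the macrophage covariate and −0.109 without both animals (without 1 sample, −0.109 to 0.172).

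Called genes of the lists gave 1479 values over 51 pairs of gene and comparison: 1209 kept their call and 270 lost it, with no sign change. The cause of these changes was not tested. No paired analysis was possible because no replicate number occurs in more than 1 group.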
